A study of Mus musculus with 16 samples.

Results

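Human Dicer carrying the changes Y971A and Y972A in its PAZ domain was compared with unchanged human Dicer in mouse mesenchymal stem cells that lack their own Dicer. The members are the 2 libraries labelled with the PAZ mutant, chosen by their labels from 16 libraries of small RNA in 8 groups, and they were set against the 2 libraries labelled with human Dicer. Both groups were Dicer -/- cells of strain C57BL/6 transfected with the human enzyme. Other groups are used here only as reference: the Dicer f/f parent genotype and the knockout itself, both given mCherry, a red fluorescent protein, in place of the enzyme, and the knockout given human Dicer with K70A in the helicase domain, each with 2 libraries. The labels give no age or sex, no clone or culture and no level of the transfected protein. A lower level of a miRNA in the PAZ group can therefore not be told apart from a lower level of the enzyme.

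Dicer cuts the precursor hairpin that Drosha has released, and so frees a 5p arm and a 3p arm. The PAZ domain is the pocket of Dicer that holds the 3′ end of the precursor, next to a pocket for the 5′ end, and the distance from this anchored end to the catalytic centres sets where the hairpin is cut. The 3′ end of a 5p arm and the 5′ end of a 3p arm are thus cut by Dicer, while the 5′ end of a 5p arm and the 3′ end of a 3p arm come from Drosha. The first bases of a miRNA, the seed, choose its target messages, so a shifted 5′ end changes the targets. The study asked what each domain of Dicer contributes to the processing of precursors.

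The let-7 family, which restrains growth-promoting genes in differentiated cells, was lower with the PAZ mutant in every abundant arm, so its sequences are shown first. Capitals mark the seed, bases 2 to 8, which all 9 share; sequences are from RefSeq (GRCm38.p6).
let-7a-5p: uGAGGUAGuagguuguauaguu
let-7b-5p: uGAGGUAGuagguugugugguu
let-7c-5p: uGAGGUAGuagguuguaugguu
let-7d-5p: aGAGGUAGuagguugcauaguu
let-7e-5p: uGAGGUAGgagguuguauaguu
let-7f-5p: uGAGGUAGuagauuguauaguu
let-7g-5p: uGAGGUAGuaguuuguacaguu
let-7i-5p: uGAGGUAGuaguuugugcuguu
miR-98-5p: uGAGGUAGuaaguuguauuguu

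A second set of arms, with other seeds, gives the rest of the abundant pool and the arms that kept or gained share.
miR-22-3p: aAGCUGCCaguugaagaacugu
miR-21a-5p: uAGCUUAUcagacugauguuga
miR-24-3p: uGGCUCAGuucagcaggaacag
miR-29a-3p: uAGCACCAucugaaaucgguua
miR-29b-3p: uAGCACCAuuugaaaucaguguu
miR-125b-5p: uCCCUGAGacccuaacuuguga
miR-26a-5p: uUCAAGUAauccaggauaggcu
Of these, miR-29a-3p and miR-29b-3p have the same seed in RefSeq.

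Levels are reads of 18 to 26 nt that matched a miRNA hairpin, divided by the number of inserts of 15 nt or more, scaled to 1000000 inserts (CPM). The 4 compared libraries held 14415661 and 18778950 such inserts with human Dicer and 17669089 and 16311845 with the PAZ mutant (replicates 1 and 2). Replicate 1 libraries were read to 41 nt and replicate 2 libraries to 51 nt, and the labels do not say that replicates were separate cultures, so p-values measure only the spread between these samples. The replicate 1 libraries were coarse. With the PAZ mutant, 135 distinct miRNA reads seen 1000 times or more made up 99.9% of the miRNA reads of replicate 1, and 38 distinct reads were seen fewer times but at least 16. In replicate 2 that middle range held 822 distinct reads. The most common size of a distinct read was 6029 reads in replicate 1 and 50 in replicate 2 with the PAZ mutant, and 6188 and 40 with human Dicer. An arm near 0 in a replicate 1 library is therefore weak evidence that it was not made, and every value is given per replicate. Reads matching mouse Dicer1 transcripts stood at 0 and 1.44 CPM with human Dicer and at 0.170 and 13.1 CPM with the PAZ mutant. They check nothing, since the deleted part of the gene is not given and reads were not compared with the human gene. Arms typical of mesenchymal cells made up 63.9% and 71.2% of miRNA reads with human Dicer and 68.2% and 72.7% with the PAZ mutant. The liver marker miR-122 was at 0, and those of epithelium, pluripotent cells and neurons did not pass 15.9 CPM in any of the 4 libraries. The muscle miRNA miR-206-3p stood at 0.139 and 42.1 CPM with human Dicer and at 953 and 74.4 CPM with the PAZ mutant. Among blood markers miR-155-5p stood at 1705 and 38.9 CPM and at 936 and 32.4 CPM. The endothelial miR-126a-3p stood at 437 and 58.3 CPM with human Dicer and at 417 and 52.0 CPM with the PAZ mutant. Summed over each list, muscle markers gave 0.139 and 44.4 CPM with human Dicer and 953 and 81.8 CPM with the PAZ mutant, and blood markers 1958 and 39.1 CPM and 936 and 32.4 CPM. The part of such cells in the results was not tested.

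With the PAZ mutant miRNA reads were a smaller share of inserts in both replicates. miRNA reads were 38.1% and 14.4% of inserts with human Dicer and 25.8% and 6.67% with the PAZ mutant, against 1.54% and 0.293% in Dicer -/- cells with mCherry. The groups overlapped because replicate 1 was higher than replicate 2 in each, and their means were 26.2% ± 16.7 and 16.2% ± 13.5 (SD, n = 2; exact permutation p = 0.667, 2-sided, where 2 against 2 libraries cannot go below 0.333). Within replicates the share was lower by 12.3 and 7.75 percentage points. In bulk RNA a smaller share can come from fewer cells that carry the enzyme or from less miRNA in each cell, and these cannot be told apart. A share also depends on the other inserts of the library, so it does not give the amount of miRNA made.

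Across arms no single change passed the main test. Of 494 arms with 20 reads or more in total, edgeR's quasi-likelihood test, fitted over 8 libraries with Benjamini-Hochberg adjustment, called 0 (0%) at an adjusted p under 0.05, both when levels were scaled to all inserts and when they were scaled within the miRNA pool. At an unadjusted p under 0.05 there were 4 and 3 arms. DESeq2 called 11 arms lower with scaling to all inserts, and 1 higher and 2 lower within the miRNA pool. No let-7 member was among these. With a term for read length, which the replicate number marks, edgeR called 2 arms with scaling to all inserts, let-7c-5p and miR-21a-5p, both lower, and 0 within the pool. The common coefficient of variation was 2.44 and 2.51 in the 2 edgeR fits. The statements below are therefore values per library, with the edgeR log2 change and its standard error for the main arms.

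Among 109 arms with a mean of 50 CPM or more with human Dicer, 70 were lower in CPM with the PAZ mutant in both replicates (64.2%) and 4 were higher in both. Both PAZ libraries lay below both human Dicer libraries for 39 of the 109 (35.8%) and above both for 1 (0.917%), which was miR-140-3p. The median log2 change of CPM + 1 over the 109 was -1.17 in replicate 1 and -1.04 in replicate 2. The share of the miRNA pool takes out the general fall in CPM. By this share 35 arms were lower in both replicates (32.1%) and 24 were higher in both (22%). The median log2 changes were -0.89 and 0.04. In the pool both PAZ libraries lay below both human Dicer libraries for 27 arms (24.8%) and above both for 11 (10.1%). The 109 arms were picked by their level with human Dicer, a choice that favours falls. Over all 494 arms tested, both PAZ libraries lay below both human Dicer libraries in CPM for 48 arms and above for 14. In the pool these counts were 34 and 35, and 43 arms were lower and 50 higher in both replicates. Replicate 1 carries many of the extremes: with the PAZ mutant 28 of the 109 arms had 3 reads or fewer in replicate 1 and 5 in replicate 2, and with human Dicer 8 and 4. The pool changes of replicates 1 and 2 are compared here as a description, over arms that share a library. Across 103 of the 109 arms they had a Pearson r of 0.03 and a Spearman rho of 0.13. Across 155 of all arms tested these were 0.22 and 0.28. Only across the 49 arms with 1000 reads or more in each of the 4 libraries did they reach 0.54 and 0.47.

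The let-7 family was lower in every one of its abundant arms. All 10 let-7 arms of 50 CPM or more with human Dicer were lower in CPM in both replicates, set against 64.2% of the 109 arms, and 9 of 10 were lower as a share of the miRNA pool in both, set against 32.1%. For 7 of the 10 both PAZ libraries lay below both human Dicer libraries, set against 35.8% of the 109. Their median log2 change was -3.18 and -2.72 in CPM + 1, and -2.62 and -1.62 within the pool. None of the 18 let-7 arms tested passed in the fit without a term for read length. With that term (the replicate block), let-7c-5p was lower at an edgeR adjusted p of 0.00879. Summed over the family, let-7 reads were 56943 and 11299 CPM with human Dicer and 12144.5 and 1858 CPM with the PAZ mutant, and so 15.0% and 7.84% of miRNA reads with human Dicer and 4.71% and 2.79% with the PAZ mutant. In Dicer f/f cells the family took 16.7% and 7.26% of miRNA reads. In K70A cells it took 16.9% and 4.38%, so in replicate 2 that mutant was also below human Dicer.

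let-7c-5p, the most abundant member, stood at 18675 and 4336 CPM with human Dicer and at 3865 and 483 CPM with the PAZ mutant. The groups did not overlap, and human Dicer was higher 4.83-fold in replicate 1 and 8.98-fold in replicate 2. The edgeR log2 change was -2.40 with a standard error of 1.04 (adjusted p = 1). let-7i-5p stood at 11882 and 2474 CPM with human Dicer and at 3088 and 436 CPM with the PAZ mutant. let-7b-5p stood at 8385 and 1734 CPM and at 2646 and 179.6 CPM. For these last arms replicate 1 of the PAZ mutant was above replicate 2 of human Dicer, so the groups overlapped, while within each replicate human Dicer was higher.

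let-7a-5p gave 5797 and 459.8 CPM with human Dicer and 1402 and 170.4 CPM with the PAZ mutant. let-7f-5p gave 2642 and 581 CPM and then 378 and 118 CPM, and let-7d-5p 2708 and 560.4 CPM and then 202 and 72.5 CPM. The groups overlapped for let-7a-5p and stood apart for let-7f-5p and let-7d-5p. let-7d is also read from its 3p arm, and let-7d-3p gave 3508 and 621 CPM with human Dicer and 297.7 and 170.4 CPM with the PAZ mutant. Both arms of let-7d were thus lower, without overlap.

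The lowest members were let-7e-5p and miR-98-5p. let-7e-5p stood at 1718 and 256 CPM with human Dicer and at 2.09 and 14.0 CPM with the PAZ mutant, 18.3-fold lower in replicate 2 (edgeR log2 change -6.94, standard error 2.83, adjusted p = 1). miR-98-5p stood at 530.1 and 82.0 CPM and at 0.340 and 3.004 CPM, 27.3-fold lower in replicate 2, where 1539 and 49 reads were counted. The Dicer -/- libraries had let-7e-5p at 10.7 and 14.0 CPM, so with the PAZ mutant it did not stand above the level of the cells without any Dicer. let-7e lies in an intron of Spaca6 at chr17:17830352-17830444 (plus strand), and miR-98 in an intron of Huwe1 at chrX:151913214-151913321 (plus strand, GRCm38.p6). The exception was let-7g-5p, at 1098 and 136 CPM with human Dicer and 0.566 and 124 CPM with the PAZ mutant: its share of the pool was higher in replicate 2, by 0.98 on the log2 scale, and in replicate 1 it had 10 reads.

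let-7 precursors fall into 2 groups by the overhang that Drosha leaves, and group II needs an added base to gain the overhang that Dicer holds. Both arms of group I with 50 CPM or more (let-7c-5p and let-7e-5p) and all 7 of group II were lower in CPM in both replicates. Summed over all arms the log2 change was -2.40 and -3.21 for group I and -2.16 and -2.39 for group II. The difference between the groups was not tested.

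**Figure D1:**
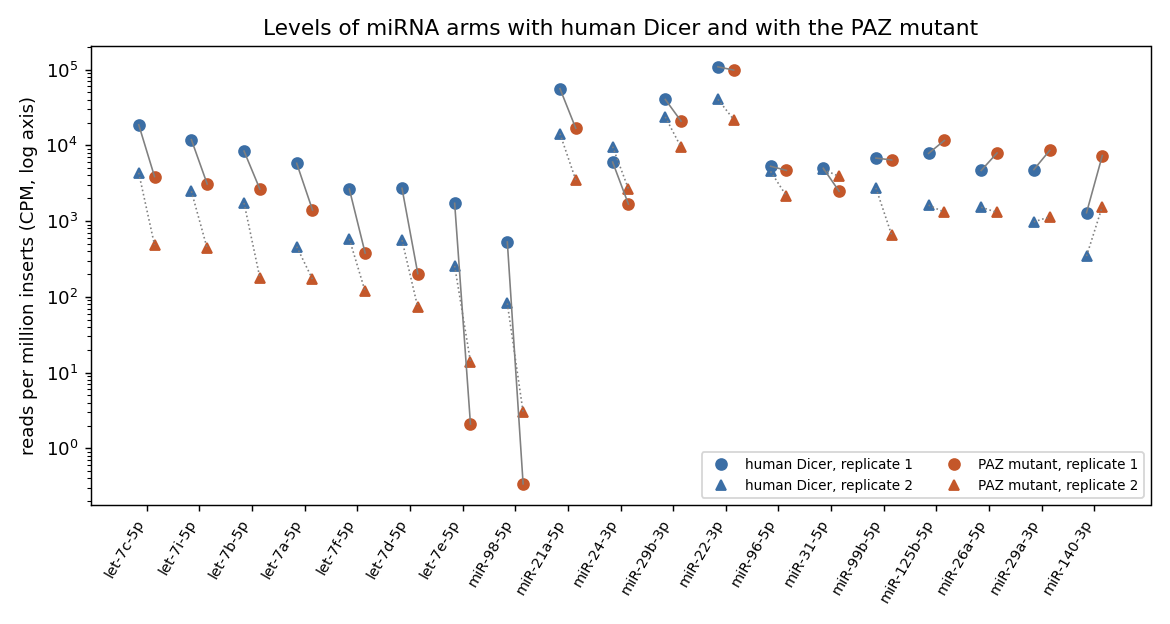
CPM on a log axis of 19 miRNA arms in the 2 human Dicer libraries (blue) and the 2 PAZ mutant libraries (orange), with circles for replicate 1, triangles for replicate 2 and a line joining the libraries of a replicate. The 8 let-7 arms at the left were lower with the PAZ mutant in both replicates, and miR-140-3p at the right was higher in both, from 1288 to 7329 and from 345 to 1557 CPM.

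Outside let-7, the arms with the highest level followed different courses. miR-22-3p, the largest of all, stood at 108798 and 40472 CPM with human Dicer and at 98370 and 21812 CPM with the PAZ mutant (edgeR log2 change -0.31, standard error 0.49). It lost less than the pool, and its share of miRNA reads was 28.6% and 28.1% with human Dicer and 38.1% and 32.7% with the PAZ mutant. miR-21a-5p, which is abundant in fibroblasts and targets tumour suppressors, stood at 56011 and 14247 CPM and at 16782 and 3481 CPM, lower 3.34-fold and 4.09-fold (edgeR log2 change -1.79, standard error 0.72, adjusted p = 1, and 0.00131 with the replicate block). Its share of miRNA reads was 14.7% and 9.88% with human Dicer and 6.50% and 5.22% with the PAZ mutant. The groups overlapped in CPM and not in share.

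miR-24-3p stood at 6009 and 9609 CPM with human Dicer and at 1673 and 2658 CPM with the PAZ mutant, without overlap, and was lower 3.59-fold and 3.62-fold. miR-29b-3p, a repressor of collagens, stood at 40354 and 23678 CPM and at 20845 and 9437 CPM, also without overlap. Its family member with the same RefSeq seed, miR-29a-3p, stood at 4784 and 977 CPM with human Dicer and at 8559 and 1138 CPM with the PAZ mutant. The pair thus went opposite ways in both replicates, with log2 changes within the pool of -0.39 and -0.21 for miR-29b-3p and 1.40 and 1.33 for miR-29a-3p. The usual read of miR-29a-3p began with C and not with the RefSeq U. Most miR-29a-3p reads thus did not carry the seed of miR-29b-3p. Of the other arms among the 12 highest, miR-96-5p, miR-31-5p, miR-99b-5p and miR-125b-5p had pool changes of 0.38 and 0.04, -0.45 and 0.80, 0.48 and -0.96, and 1.13 and 0.80.

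Arms of 50 CPM or more with human Dicer were ranked by fitted pool change. The 8 lowest, among those lower in both replicates, were miR-702-5p, miR-340-5p, miR-149-3p, miR-98-5p, let-7e-5p, miR-7688-5p, miR-103-3p and miR-1964-3p. They were chosen by that change, so their size is a description, and the 6 outside let-7 had 0 to 7 reads in replicate 1 and 0 to 80 in replicate 2 of the PAZ mutant. miR-340-5p gave 457 and 25.3 CPM with human Dicer and 0 and 0.0613 CPM with the PAZ mutant. In replicate 1 its 6584 reads with human Dicer were about the size of 1 common read there (6188). miR-103-3p gave 455 and 37.5 CPM and then 0.396 and 4.90 CPM, and miR-702-5p 173 and 4.15 CPM and then 0 in both libraries. Also without overlap were miR-222-3p, which in human cells targets the kinase inhibitor p27, at 1701 and 749 CPM and at 1.13 and 127 CPM, and miR-484-5p, whose capped precursor is made without Drosha, at 438 and 138 CPM and at 0.170 and 15.8 CPM.

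The arms with the largest pool gain were miR-140-3p, miR-10b-5p, miR-16-3p, miR-151-5p, miR-29a-3p, miR-28a-5p, miR-199a-5p and miR-26a-5p. miR-140-3p, a miRNA of cartilage and mesenchymal cells that lies within Wwp2 at chr8:107551244-107551313 (plus strand, GRCm38.p6), stood at 1288 and 345 CPM with human Dicer and at 7329 and 1557 CPM with the PAZ mutant. It was higher 5.69-fold and 4.51-fold, the groups did not overlap, and its share of miRNA reads was 0.338% and 0.239% against 2.84% and 2.33% (edgeR log2 change within the pool 3.28, standard error 1.37, adjusted p = 1). For comparison, Dicer f/f cells had 1432 and 1748 CPM, in replicate 2 more than the PAZ mutant. K70A cells had 37887 and 10197 reads of it from 14795262 and 13894746 inserts. Human Dicer cells had 18573 and 6479 reads from 14415661 and 18778950 inserts. Per insert K70A was thus also above human Dicer in both replicates. miR-26a-5p stood at 4655 and 1522 CPM and at 7923 and 1303 CPM, and miR-28a-5p at 1954 and 173.5 CPM and at 2773 and 186 CPM. miR-151-5p rested on replicate 1, with pool changes of 3.86 and 0.19, and miR-10b-5p had 6.87 and 3.43 CPM in replicate 2.

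**Figure D2:**
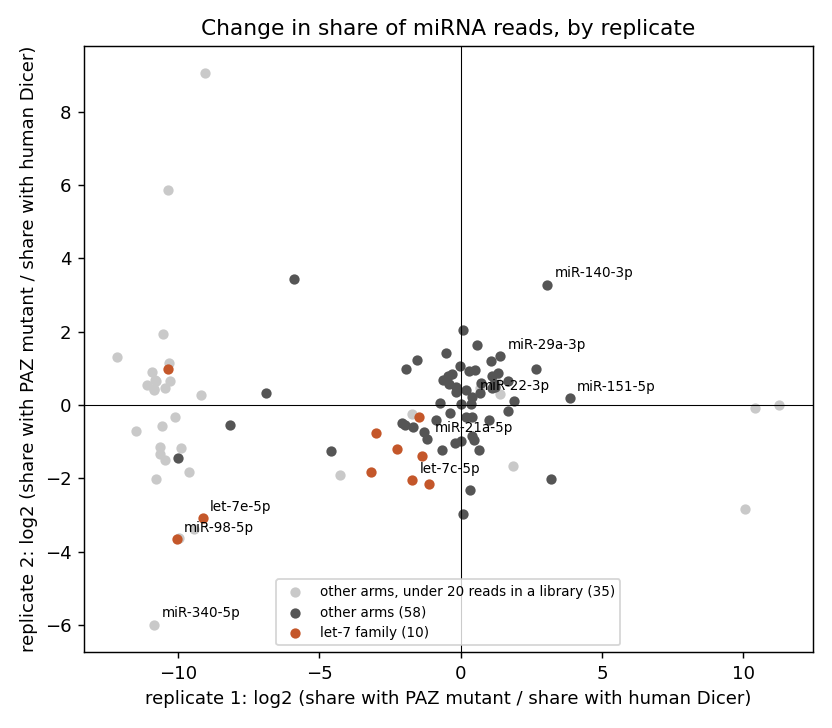
Log2 change in the share of miRNA reads from human Dicer to the PAZ mutant in replicate 1 (x axis) and replicate 2 (y axis), for 103 arms of 50 CPM or more with human Dicer and over 3 reads in a library of each replicate; counts at or under 3 reads were set to 3. Let-7 arms (orange) lie at the lower left, apart from let-7g-5p, miR-140-3p lies at the upper right, and the arms with under 20 reads in a library (light grey) spread mainly along the x axis.

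The other lists moved less evenly. Of the 24 abundant arms of the fibroblast and mesenchymal list, 7 were lower and 8 higher in pool share in both replicates, with medians of -0.19 and 0.33. In the miR-17-92 family of clusters, known to drive proliferation, 1 of 8 was lower and 2 were higher (medians 0.08 and 0.20); miR-92a-3p stood at 1898 and 723 CPM with human Dicer and at 2072 and 423 CPM with the PAZ mutant, and miR-17-5p at 1063 and 207 CPM and at 438 and 100.1 CPM. In the miR-15/16 family, which slows the cell cycle, 0 of 6 were lower and 4 higher (medians 0.94 and 0.62), with miR-16-5p at 1395 and 2379 CPM and at 2168 and 1655 CPM. Of the miR-30 family 0 of 4 were lower and 1 higher (medians 1.06 and 0.15), and miR-30a-5p stood at 2708 and 461 CPM and at 3963 and 292 CPM. Of the miR-183 cluster 1 of 3 was lower and 1 higher (medians -0.61 and 0.04), with miR-183-5p at 4590 and 733 CPM and at 1962 and 145 CPM. The miR-29 family had 1 of 2 lower and 1 higher. None of these lists had an arm past the adjusted threshold in either fit.

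Hairpins that bypass Drosha or Dicer gave few reads. Of 3 abundant arms among mirtrons and capped precursors, 2 were lower and 1 higher in pool share in both replicates. miR-320-3p, made from a capped precursor without Drosha, stood at 993 and 172 CPM with human Dicer and at 774 and 105.6 CPM with the PAZ mutant. miR-451a, which Argonaute cuts in place of Dicer and which is a miRNA of red blood cells, had 0 reads in all 4 libraries, which allows up to 0.160 to 0.208 CPM at 3 reads per library.

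The let-7 precursors are long. Between the RefSeq mature ends the let-7 precursors of the abundant arms measured 67 to 80 nt (median 76, 9 names) and those of the others 55 to 100 nt (median 61, 69 names). Across abundant arms the Spearman rho of length with pool change was -0.13 in replicate 1 (89 arms) and -0.24 in replicate 2 (91 arms), and without let-7 -0.03 and -0.09. These are descriptions over arms that share a library.

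The ends of the reads were compared with the usual ends, the bases most used in Dicer f/f cells. No arm passed the test at either end. Of 311 arms edgeR called 0 (0%) for a changed Dicer-cut end, and of 280 arms 0 (0%) for a changed Drosha-cut end, with 1 arm each at an unadjusted p under 0.05; limma called 0 in both, with 8 and 6 at an unadjusted p under 0.05. Mean read length differed by a fraction of a base. Over 35 5p arms with 100 reads or more in each of the 8 libraries the median length was 22.25 and 22.12 nt with human Dicer and 22.0001 and 22.11 nt with the PAZ mutant (exact permutation p = 0.333, n = 2 each). Over 21 3p arms it was 22.01 and 21.94 nt and then 22 and 21.77 nt (exact permutation p = 0.667).

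Over the median arm, other ends were rarer at the 5′ end of reads than at the 3′ end in each of the 4 libraries, while single arms described below differed at the 5′ end. At the Drosha-cut 5′ end of 5p arms, the median share of reads away from the usual base was 0 and 0.511% with human Dicer and 0.00204% and 0.104% with the PAZ mutant. At the Dicer-cut 5′ end of 3p arms it was 0.0210% and 2.99%, and 0.0330% and 3.13%. At the Dicer-cut 3′ end of 5p arms it was 10.7% and 17.5%, and 1.81% and 24.7%. For the Drosha-cut 3′ end of 3p arms it was 5.31% and 9.75% with human Dicer and 1.30% and 29.3% with the PAZ mutant. At both 3′ ends the replicates went opposite ways, lower in replicate 1 and higher in replicate 2, and the exact permutation p was 1 for each (n = 2).

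Replicate 2, with the finer read sizes, allowed a closer look at 64 5p arms and 37 3p arms that had 500 reads or more in each of its libraries, a set chosen after the data were seen and without a replicate. The PAZ library had a shorter mean length than the human Dicer library in 46 of 64 5p arms (median difference -0.12 nt) and in 31 of 37 3p arms (median difference -0.20 nt). The share of other 3′ ends was higher in 49 of 64 5p arms, by a median of 4.78 percentage points, and in 30 of 37 3p arms, by 9.50 points. Against K70A and Dicer f/f cells it was higher in 33 and 38 of the 64 5p arms, by medians of 0.0797 and 1.48 points, and in 25 and 29 of the 37 3p arms, by 5.29 and 7.92 points. Over the 5p arms the median share was 20.9% with human Dicer, 26.04% in Dicer f/f, 26.9% in K70A and 28.3% in PAZ mutant cells, so human Dicer was the lowest of the 4. Reads of 5p arms that stopped short of the usual Dicer-cut end were more frequent in 50 of the 64 against human Dicer, and in 38 of the 64 against each of K70A and Dicer f/f cells. Their median share was 16.1% with the PAZ mutant and 16.8% in Dicer f/f cells. Set against the replicate 2 libraries of Dicer f/f and K70A cells, the mean length with the PAZ mutant was shorter in 36 and 42 of 64 5p arms and in 27 and 27 of 37 3p arms. In replicate 1 the arms split more evenly. Over arms with 200 reads or more in each of the 4 compared libraries, mean length was lower in both replicates for 10 of 23 3p arms and higher in both for 2, and for 5p arms it was lower for 12 and higher for 7 of 36.

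**Figure D3:**
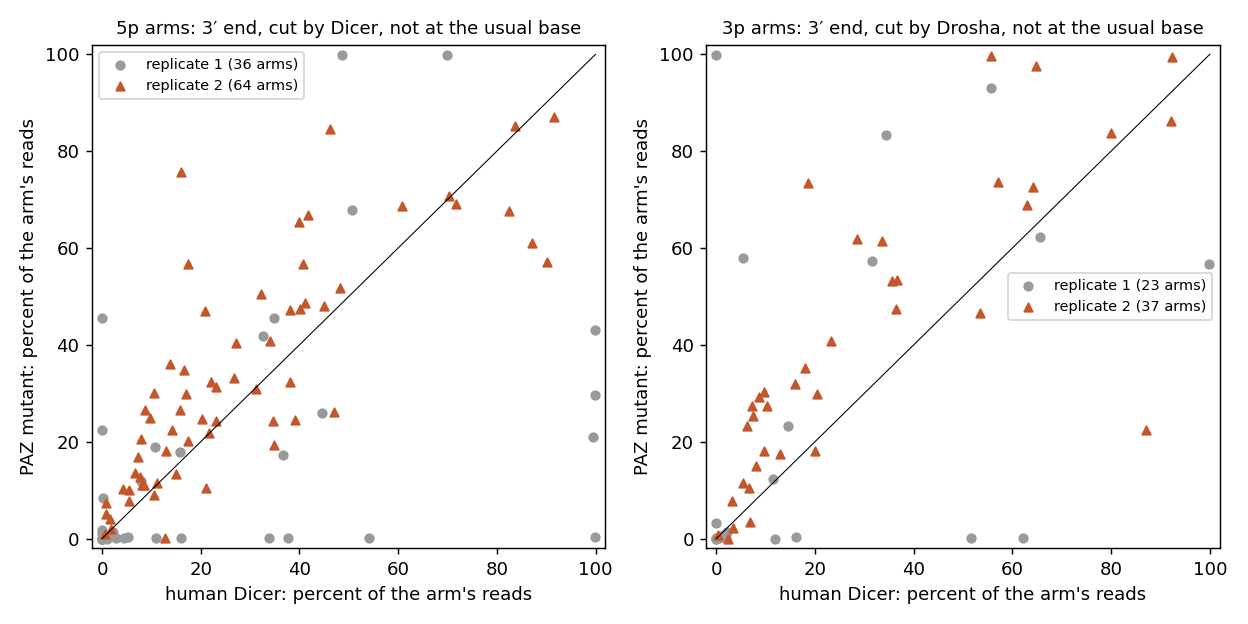
Percent of an arm's reads whose 3′ end is not the usual base, with human Dicer (x axis) and with the PAZ mutant (y axis), for 5p arms, where Dicer cuts this end (left), and 3p arms, where Drosha does (right); grey circles are replicate 1 and orange triangles replicate 2. Most triangles lie above the diagonal, 49 of 64 and 30 of 37, while circles lie on both sides of it.

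miR-140-3p differed most at its Dicer-cut 5′ end among the 3p arms that were higher in both replicates. Its reads came in 2 forms with different seeds, shown with bases 2 to 8 in capitals beside the RefSeq mature sequence. The usual start is the one most used in Dicer f/f cells; the start 1 nt earlier is the RefSeq start.
miR-140-3p, usual start: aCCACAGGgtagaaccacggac
miR-140-3p, start 1 nt earlier: tACCACAGggtagaaccacgga
miR-140-3p, RefSeq: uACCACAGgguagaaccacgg
The earlier start made up 0.0754% and 65.0% of miR-140-3p reads with human Dicer and 84.1% and 93.5% with the PAZ mutant (edgeR log2 change of other over usual ends 7.84, standard error 5.68, adjusted p = 1). In replicate 2 the 95% Wilson intervals were 63.8% to 66.2% and 93.2% to 93.8%; intervals here cover counting error only, as reads are not separate molecules. The PAZ libraries were both above both human Dicer libraries, but Dicer f/f cells had 24.8% and 60.1% and K70A cells 71.3% and 53.2%, so the value of 0.0754% stood apart from all the others. The 3′ end, which Drosha cuts, differed with it. Reads that started 1 nt earlier and also stopped short of the usual 3′ end were 0.0700% and 51.6% of the arm with human Dicer and 72.7% and 92.7% with the PAZ mutant. The form of 21 nt (taccacagggtagaaccacgg), the RefSeq mature sequence itself, made up 32.1% and 32.1% with the PAZ mutant and 0.0215% and 5.32% with human Dicer. In absolute terms the form with the usual start and end was read 12190 and 1610 times with human Dicer and 14361 and 406 times with the PAZ mutant.

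**Figure D4:**
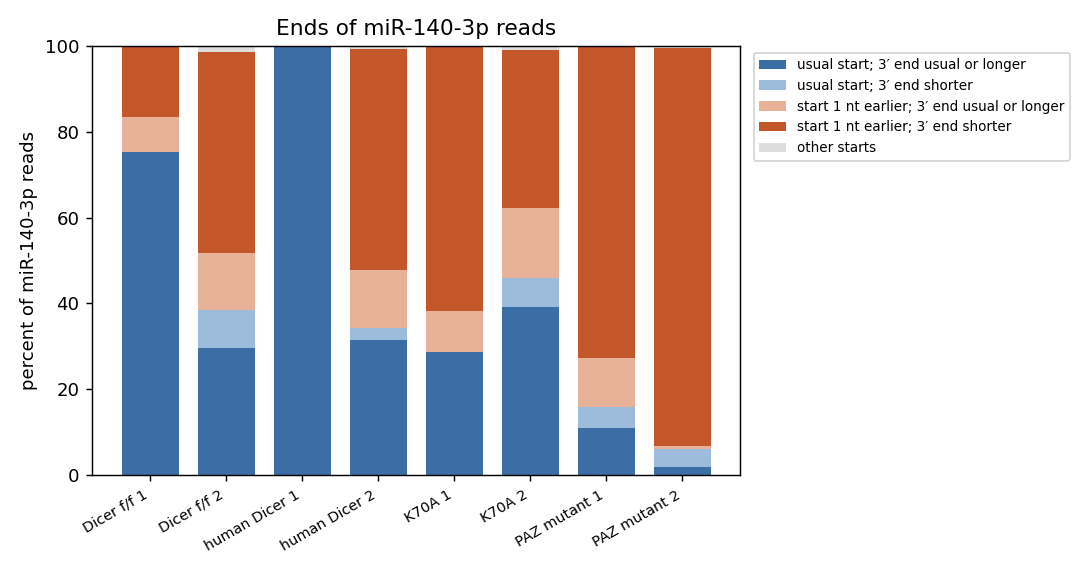
Share of miR-140-3p reads by start and end in the 8 libraries of Dicer f/f, human Dicer, K70A and PAZ mutant cells; blue marks the usual start (pale where the 3′ end is shorter) and orange a start 1 nt earlier (full where the 3′ end is shorter), with other starts in grey. The class that starts earlier and ends short takes 72.7% and 92.7% in the PAZ libraries and at most 61.8% in the others.

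Other Dicer-cut ends differed in single arms. Among 3p arms with 200 reads or more in each of the 4 libraries, the share of another 5′ end was higher in both replicates for 5 and lower in both for 5 of 23. After miR-140-3p came miR-214-3p, at 31.4% and 39.1% with human Dicer and 87.9% and 42.2% with the PAZ mutant. miR-320-3p had 0.0210% and 11.2% and then 0.0439% and 13.4%, and the differences of miR-28a-3p and miR-29b-3p were smaller. Among arms that were lower, miR-652-3p had 99.9% and 2.03% and then 0.0214% and 1.76%, and miR-423-3p 11.3% and 12.2% and then 6.39% and 11.8%. miR-29a-3p had 38.0% and 32.2% and then 34.2% and 31.0%, and miR-27b-3p and miR-143-3p had 2.55% at most in the 4 libraries.

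Among 36 5p arms 11 were higher and 2 lower in both replicates at the 3′ end. miR-423-5p went from 34.7% and 46.2% to 45.6% and 84.5%, with reads that stopped short of the usual end at 0.126% and 35.2% with human Dicer and 45.6% and 71.9% with the PAZ mutant. Its usual form was 65.3% and 53.8% of the arm with human Dicer and 54.4% and 15.5% with the PAZ mutant. In Dicer f/f cells that form was 52.3% and 54.1%, and in K70A cells 0.133% and 52.7%. miR-182-5p went from 48.7% and 60.7% to 99.9% and 68.6%, miR-16-5p from 69.9% and 26.7% to 99.9% and 33.2%, and miR-191-5p from 0 and 17.5% to 1.15% and 56.6%. miR-7-5p went from 0.0176% and 20.8% to 45.5% and 47.0%, but in replicate 2 a single read that lies upstream of the arm (19 bases before its usual start) was 29.9% of its reads. miR-30c-5p and miR-92a-5p were lower in both replicates, from 99.9% and 15.0% to 43.1% and 13.4% and from 33.9% and 38.0% to 0.115% and 32.3%.

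Among 3p arms the Drosha-cut 3′ end was away from the usual base more often in both replicates for 8 of 23 arms and less often for 2. miR-221-3p and miR-24-3p, chosen after their values were seen, show the shorter forms. Capitals mark the last base of the usual form, which the shorter form lacks.
miR-221-3p, usual: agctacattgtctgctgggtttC
miR-221-3p, shorter: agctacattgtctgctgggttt
The usual form of miR-221-3p was read 5566 and 2852 times with human Dicer and 6 and 3 times with the PAZ mutant. Reads at other 3′ ends were 99.9% and 99.7% with the PAZ mutant (95% Wilson interval in replicate 2 99.2% to 99.9%), against 0.0359% and 55.6% with human Dicer, and the groups did not overlap. Dicer f/f cells had 5.85% and 61.5% and K70A cells 65.6% and 61.6%. In replicate 1 nearly the whole arm was 1 distinct read per library, of 5566 reads with human Dicer and 7228 with the PAZ mutant. Each is about the size of 1 common read there (6188 and 6029). For miR-24-3p other 3′ ends were 5.31% and 7.19% with human Dicer and 57.9% and 27.3% with the PAZ mutant, again without overlap (edgeR log2 change 3.45, standard error 2.95, adjusted p = 1). Its usual form was 87.5% and 92.6% of the arm with human Dicer and 42.1% and 72.2% with the PAZ mutant. That form was 87.2% and 80.3% in Dicer f/f cells and 94.4% and 88.6% in K70A cells.

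Reads that ran past the Dicer site were more frequent with the PAZ mutant. These start or end within 2 nt of the usual base on the Drosha side and run 5 nt or more past the Dicer cut. They were 0.153% and 0.261% of miRNA reads with human Dicer and 0.896% and 0.757% with the PAZ mutant, and 0.0360% and 0.0334% in Dicer f/f cells. The groups did not overlap (0.207% ± 0.0763 and 0.827% ± 0.0982, SD, n = 2; exact permutation p = 0.333, the smallest possible). CPM does not depend on the size of the miRNA pool. In CPM they were 583 and 376 with human Dicer and 2313 and 505 with the PAZ mutant. Dicer -/- cells with mCherry had 3562 and 631 CPM. In CPM the groups overlapped, as replicate 2 of the PAZ mutant was below replicate 1 of human Dicer. Within each replicate the PAZ mutant was higher. In the PAZ libraries 40844 and 7705 of these reads came from 5p arms and 21 and 533 from 3p arms. The 40844 reads were 20 distinct sequences.

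miR-21a gave the most of them. Capitals mark bases past the usual end of miR-21a-5p; the hairpin lies within Vmp1 at chr11:86584067-86584158 (minus strand, GRCm38.p6).
miR-21a-5p, usual: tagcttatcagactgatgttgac
miR-21a-5p, 1 nt longer: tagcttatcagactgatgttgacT
miR-21a-5p, 4 nt longer: tagcttatcagactgatgttgacTGTT
miR-21a-5p, 5 nt longer: tagcttatcagactgatgttgacTGTTG
The form longer by 1 nt was 17.7% and 26.1% of the arm with human Dicer and 38.0% and 41.3% with the PAZ mutant, and the usual form 66.7% and 59.0% against 58.2% and 43.3%. In Dicer -/- cells with mCherry the form longer by 1 nt was 82.8% and 74.4% of the arm. Forms longer by 4 nt or more were 0.458% and 2.45% of all miR-21a-5p reads with human Dicer and 8.65% and 14.8% with the PAZ mutant (95% Wilson intervals in replicate 2 2.39% to 2.51% and 14.5% to 15.1%). The groups did not overlap. Dicer f/f cells had 0.000377% and 0.120%, and K70A cells 0.554% and 2.06%. In CPM the longer forms stood at 258 and 358 with human Dicer, 1588 and 606 with the PAZ mutant, and 2.81 and 685 in Dicer -/- cells with mCherry. In replicate 2 the PAZ mutant thus had no more of them per insert than cells without Dicer. miR-21a was singled out after its values were seen.

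miR-31-5p had a long form in the same libraries, a read of 36 nt, the longest insert seen whole in replicate 1, with bases past the usual end in capitals.
miR-31-5p, 14 nt longer: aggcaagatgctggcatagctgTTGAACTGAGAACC
It was read 1 and 166 times with human Dicer and 7936 and 38 times with the PAZ mutant, so the replicates went opposite ways. All reads of miR-31-5p past the site were 0.00418% and 1.69% of the arm with human Dicer and 15.4% and 2.92% with the PAZ mutant. miR-182-5p had 26.7% and 0.388% with human Dicer and 31.6% and 0 with the PAZ mutant.

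**Figure D5:**
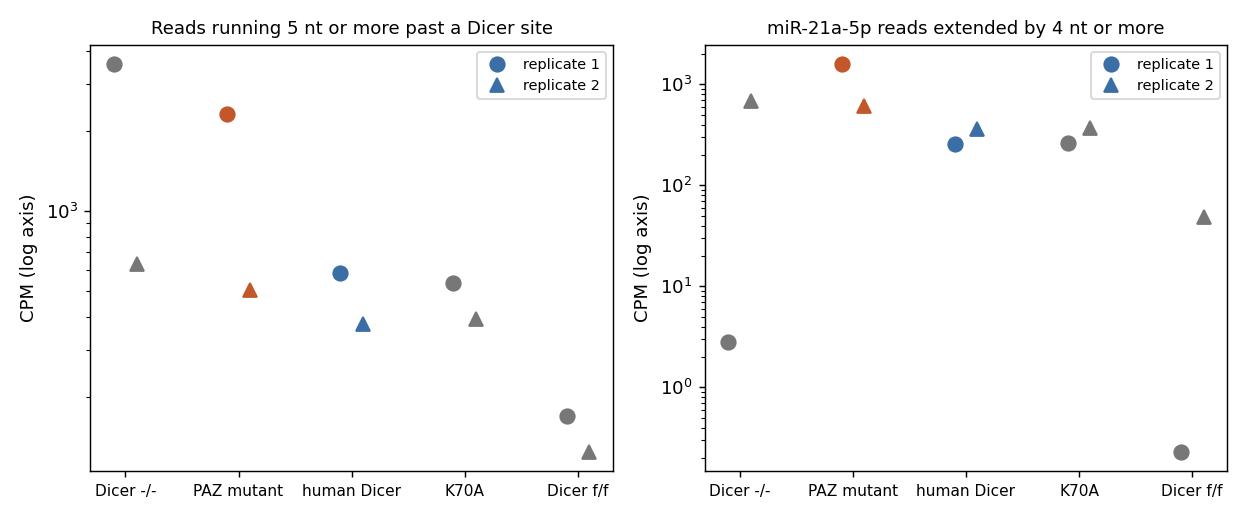
CPM on log axes of all reads that run 5 nt or more past a Dicer site (left) and of miR-21a-5p reads longer by 4 nt or more (right), in the 2 libraries each of Dicer -/-, PAZ mutant, human Dicer, K70A and Dicer f/f cells. The PAZ libraries (orange) stand above the human Dicer libraries of the same replicate (blue) in both panels, by 2313 to 583 and 505 to 376 CPM at the left.

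No hairpin passed the test for a changed arm ratio. The fit had a common coefficient of variation of 1.79, so this does not show that arm choice was the same. 5p arms held 49.4% and 41.7% of miRNA reads with human Dicer and 39.8% and 37.4% with the PAZ mutant, so both PAZ libraries were lower (45.6% ± 5.44 and 38.6% ± 1.70, SD, n = 2; exact permutation p = 0.333). let-7-5p and miR-21a-5p are 5p arms and miR-22-3p, whose share was higher, a 3p arm. How much these arms account for the lower 5p share was not tested. Of 167 hairpins with 20 reads or more on each arm, edgeR called 0 (0%) for a changed 5p to 3p ratio, with 0 at an unadjusted p under 0.05, and limma called 0, with 3 at an unadjusted p under 0.05. Of 50 hairpins with 200 reads or more in each of the 4 libraries, 47 kept the same dominant arm in replicate 1 and 48 in replicate 2. For 19 of the 50 one arm had 0 reads in both libraries of a replicate, so that replicate gave no direction. Over the 50 the 5p share was lower in both replicates for 10 hairpins and higher in both for 6, some of them by 1 or 2 reads.

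Of the hairpins named by their log2 ratio, which is computed with 0.5 reads added to each arm, several had no reads on the minor arm and so showed no shift. miR-191 had no 3p read in any of the 4 libraries, and let-7b had none in replicate 1. miR-101b and miR-378a had no 5p read in replicate 1, and miR-221 had 0 and 2. let-7i had 0 and 480 reads of its 3p arm with human Dicer and 4588 and 1159 with the PAZ mutant. In replicate 2 let-7i was read 99.0% from 5p with human Dicer and 86.0% with the PAZ mutant. In replicate 1 its 3p reads were fewer than the most common read size of that library, 6029. miR-30a was read 99.99% and 89.7% from 5p with human Dicer and 92.7% and 87.6% with the PAZ mutant. miR-145a turned over in replicate 1 only, from 99.98% and 41.5% to 0.0371% and 35.9% from 5p. miR-155 had 3655 and 2 reads of its 3p arm with human Dicer and 0 in both PAZ libraries. Outside the 50 hairpins, miR-27a went from 97.0% and 75.3% to 2.78% and 41.6% from 5p. In replicate 1 of the PAZ mutant it had 2 reads of its 5p arm and 70 of its 3p arm. Within the 50 only miR-214 changed its dominant arm in both replicates, from 24.2% and 44.9% to 52.8% and 60.6% from 5p. miR-140 changed it in replicate 2, from 51.6% to 11.8% from 5p, while in replicate 1 under 0.04% of its reads were from 5p in either library.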

How the data were processed

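Per the labels, Trizol RNA was sized to 15 to 50 nt on a gel and cloned for Illumina sequencing. The authors deposited counts, one per distinct untrimmed sequence of a library. How these were made is not given in the sources used here. The 3′ adapter named in the labels was removed at 12 matching bases, or 5 or more at the end of a read. Inserts of 18 to 26 nt were compared, allowing no mismatch, with 1174 miRNA hairpins of GENCODE M21 (GRCm38). Arms were set from RefSeq mature ends (653 hairpins with both, 355 with one), otherwise from the hairpin midpoint (166). Reads shared by hairpins of different names, 0.490% to 1.74% of miRNA reads in the 4 libraries, were left out, among them the 3p arm of miR-199. All columns were assigned to samples.

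Levels, arm ratios and end classes were tested with edgeR 4.0.16 in R 4.3.3 over 8 libraries (Dicer f/f, human Dicer, K70A, PAZ mutant), contrast PAZ mutant minus human Dicer, 2-sided, adjusted p under 0.05. Standard errors were taken from log2 change and F statistic (change over root F). Scaling within the miRNA pool used TMM. Usual ends needed 10 reads in Dicer f/f cells. Single values were compared by exact permutation (scipy 1.17.1). Alternatives were DESeq2 1.42.0, limma 3.58.1 (pseudocounts 0.5 and 5), other filters, other libraries, other reads counted, and each library left out. Tests were checked on simulated data with far less spread between libraries than these fits found. The check thus does not show what the tests could call in these data. Python 3.11.15, numpy 2.4.6, pandas 2.3.3 and matplotlib 3.10.9 were used.

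The members, lists, tests and naming rule were chosen with earlier results of these data known. The rule names the 12 highest arms with human Dicer, the 8 lowest and 8 highest by fitted pool change among arms of 50 CPM or more with one direction in both replicates, and up to 5 arms per side and direction for Dicer-cut ends and arm ratio with 200 reads or more in each of the 4 libraries. It also names members of the lists: let-7 (with its 2 precursor groups), miR-17-92, fibroblast and mesenchymal, miR-29, miR-30, miR-15/16, miR-183, mirtrons and capped precursors, the Dicer-independent miR-451a, and markers of other cells (blood, endothelium, epithelium, liver, muscle, neurons, pluripotent cells).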

Additional observations from a re-analysis of the deposited data

How the results depend on the processing

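The count of arms called was 0 in both scalings and was sensitive to how reads were treated. With scaling to all inserts, DESeq2 called 11 arms and counts in units of the most common read size 3, all lower. Within the miRNA pool these settings called 3 and 1. Replicate numbers mark the read length, and the labels do not tie them to a culture or day. Deviations of same-numbered libraries correlated at 0.334 between human Dicer and the PAZ mutant and at 0.32 to 0.43 over the 6 pairs of groups. With the replicate block, edgeR called 2 arms with scaling to all inserts, let-7c-5p (log2 change -2.71) and miR-21a-5p (-1.86), both lower, and 0 within the pool. The block called 5 arms in the 4 compared libraries alone, all lower, and with a minimum of 10 CPM 2 within the pool, miR-140-3p higher and let-7c-5p lower. With read-size units and the block it called 13 (all lower) and, within the pool, 39 (17 higher and 22 lower, 7 of these from let-7). The settings with read-size units, with the 4 libraries and the block, and with 10 CPM and the block were chosen after seeing the data.

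Leaving out single libraries gave 0 to 1 arm with scaling to all inserts (miR-21a-5p, without replicate 1 of the PAZ mutant) and 0 to 1 hairpin with a changed arm ratio. A total of 6 named arms changed direction when a library was left out. Within the pool the log2 change ranged from -3.83 to 5.69 for miR-10b-5p and from -0.86 to 2.93 for miR-28a-5p. With all inserts it ranged from -4.20 to 0.77 for let-7a-5p, from -1.85 to 1.99 for miR-125b-5p, from -1.77 to 0.57 for miR-22-3p and from -2.87 to 0.43 for miR-99b-5p. The cause was not tested.

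Medians of other ends turned with the reads used. The difference at the Dicer-cut 5p end, -0.82 percentage points, became 2.97 with 1000 reads in each library, 3.25 with reads of 15 to 30 nt and 6.17 with the annotated mature end. At the Dicer-cut 3p end, 0.0764 points became -0.113 with 20 reads, -0.231 with 1000 reads and -0.526 with the annotated end. The difference in 5p length, -0.128 nt, became 0.00863 nt with 1000 reads. The cause was not tested. The share of reads past a Dicer site stayed higher with the PAZ mutant when any library was left out, by 0.550 to 0.689 points. The coarse read sizes of replicate 1 limit all values of low arms.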
